A study of Oryza sativa with 4 samples.

Results

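Cyclins, cyclin-dependent kinases (CDKs) and the KRP inhibitors of these kinases were examined in rice, in the collar of the flag leaf, where blade and sheath join and the leaf angle is set. A probe set was a member when its single annotated gene had a symbol or synonym of the form CYCA, B, D, F, H, L, P, T or U with a number, CDKA to CDKG, or KRP with a number. The rule found 51 probe sets of 39 genes, out of 57258 probe sets of rice transcripts and of 17905 genes with a probe set of their own. Another 9 genes with such names had no probe set annotated to them alone and were not analysed here. Total RNA from the 1-cm lamina joint was run on Affymetrix Rice Genome arrays, 2 arrays for the lc1 mutant and 2 for the wild type, described in the design text as biological replicates. The labels give neither the allele, the strain nor the age of the plants, nor whether plants were pooled, so lc1 stands here for the line so labelled.

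A cyclin switches on the CDK it binds, and the pair drives a step of the cell cycle. In plants, D-type cyclins with CDKA act on the retinoblastoma-related protein to open the way into S phase, and KRP proteins hold these complexes back. A-type and B-type cyclins, with CDKA and the plant CDKB kinases, act from S phase through mitosis. Other members of the family activate CDKs or act on RNA polymerase II and splicing. Cell division in the lamina joint bears on leaf angle, and a U-type cyclin of rice that brassinosteroid represses is known to promote division of sclerenchyma cells there.

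Values are MAS 5.0 signals after centring of the arrays, which divided them by 1.20 and 0.993 in lc1 and by 0.911 and 0.963 in the wild type. Before centring, the median log2 difference over tested probe sets was 0.22 in favour of lc1. Background was read from 23 control probe sets with no rice target, whose 95th percentile, called the floor below, stood at 11.5 and 12.9 in lc1 and 9.88 and 12.3 in the wild type. The literature places LC1 at GH3.1, an auxin-conjugating enzyme. GH3.1 signals were 460 and 421 in lc1, against 1.10 and 9.35, both under the floor, in the wild type. With the wild type set to its floors that is 39.9-fold higher. On the signals themselves the 95% interval was 37.6- to 501-fold (limma adjusted p = 0.0502, which does not pass 0.05). LG1, which is needed to form ligule and collar, was above the floor on all 4 arrays, at 110 and 137 in lc1 and 145 and 250 in the wild type. It was lower on both lc1 arrays, by -0.64 ± 0.33 on the log2 scale (limma adjusted p = 0.672), and the part of this in the results below was not tested. RNA quality, read as the ratio of the 5' to the 3' Gapdh probe set, did not follow genotype, at 0.246 and 0.138 in lc1 and 0.164 and 0.236 in the wild type.

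No cyclin, CDK or KRP gene passed the test between the genotypes. Of the 46 member probe sets bright enough to be tested, 0 had a limma adjusted p under 0.05 over all 34355 tested probe sets, where 9 (0.0262%) did. At an unadjusted limma p under 0.05 there were 2 members, second probe sets of CDKA-2 and of CDKE-1, against 8.03% of all tested probe sets. The genotypes did not overlap in 18 of the 46, with 10 higher and 8 lower in lc1, against 39.7% of all tested probe sets, 19.7% higher and 20.0% lower. A log2 difference of at least 1 in either direction was met by 2 of the 46, against 10.0% of all. As shares of the 46 these counts were at or below the background, except that of probe sets separate and higher in lc1, which was close to it.

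With each of the 36 tested genes represented by its brightest probe set, 15 were higher and 21 lower in lc1 (53.0% of all tested genes were higher), with a median log2 difference of -0.06, where centring holds the median of all tested probe sets at 0. Of these genes 0 had an unadjusted limma p under 0.05, against 8.08% of all tested genes, and 1 had a log2 difference of at least 1, against 5.97%. The differences ran from -0.88 for CYCD3-2 to 1.09 for CYCB1-1. The median size of a difference between genotypes, each taken as a mean of 2 arrays, was 0.19. Between single arrays of the same genotype the median difference was 0.29 for lc1 and 0.28 for the wild type. Single arrays scatter more than means of 2, so these sizes are not directly comparable. The 95% confidence interval of the difference, from limma's moderated error, had a median half-width of 0.71 and lay wholly within a 2-fold change either way for 21 of the 36. For the other 15 genes a 2-fold difference was not excluded at this precision, which the number of arrays limits. In RNA from whole collars, fewer cells of a type and less RNA per cell cannot be told apart.

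**Figure D1:**
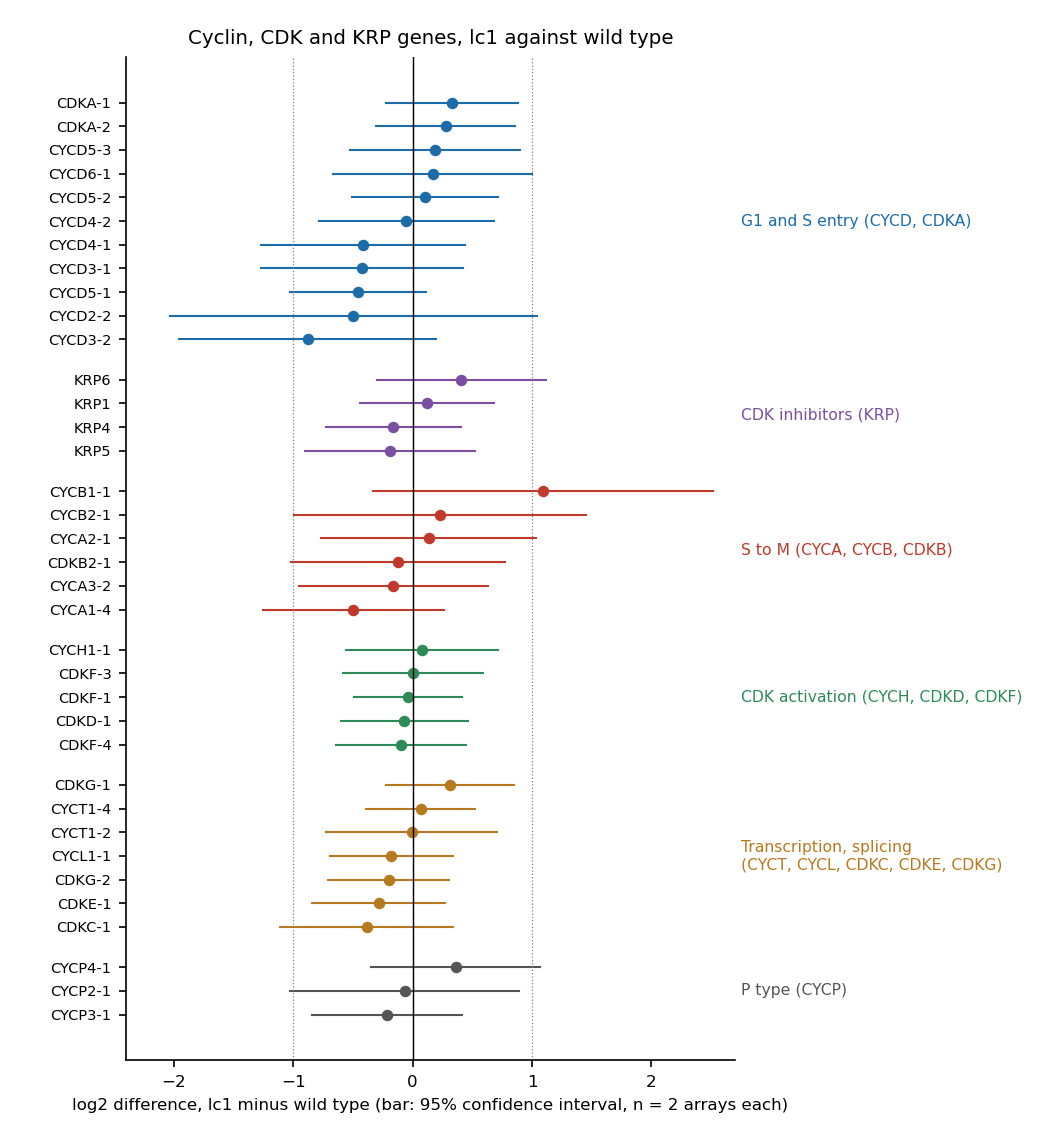
Log2 difference, lc1 minus wild type, of the 36 tested member genes (brightest probe set of each) with its 95% confidence interval, grouped by class, and dotted lines at a 2-fold change. Every interval includes 0, and the widest ones belong to dim genes such as CYCD2-2 and CYCB1-1.

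The kinase and cyclins of S phase entry gave mixed directions. The class held 11 genes, CDKA-1 and CDKA-2 (the kinases with the conserved core function of the family) and 9 D-type cyclins, and all 11 were tested. Of these, 5 were higher and 6 lower in lc1, with a median of -0.05 and 0 called. CDKA-1 (LOC4331415) had signals of 408 and 343 in lc1, against 300 and 295 in the wild type. CDKA-2 (LOC4328135) had 358 and 313 in lc1, against 248 and 307 in the wild type. Both kinases were thus higher on both lc1 arrays, by a log2 difference of 0.33 ± 0.24 (SE, n = 2 arrays each; 95% interval -0.22 to 0.88) for CDKA-1 and 0.28 ± 0.25 (-0.30 to 0.85) for CDKA-2, with limma adjusted p of 0.744 and 0.794. These probe sets are of the kinds that may also bind transcripts of related genes, so the kinases may share signal.

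A second CDKA-2 probe set, with no such mark, gave the smallest p of all members. It had 173 and 139 in lc1, against 80.8 and 77.5 in the wild type, which is 0.97 ± 0.29 on the log2 scale (limma adjusted p = 0.423). The lower lc1 array stood above both wild-type arrays, and the difference lay between 0.81 and 1.13 when any one array was left out. The dimmest CDKA-2 probe set had 64.4 and 41.4 in lc1, against 75.4 and 37.2 in the wild type, and there the genotypes overlapped. Its difference was -0.04 ± 0.43. The dim second probe set of CDKA-1, at 11.8 and 5.74 in lc1 and 14.2 and 15.99 in the wild type, gave -0.87 ± 0.61, opposite to the bright one, with one lc1 array under the floor.

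Among the D-type cyclins, 3 of 9 were higher and 6 lower in lc1, with a median of -0.41. That median was the value of CYCD4-1, and the next gene above it, CYCD4-2, stood at -0.05. The lower genes included CYCD3-2 and CYCD2-2, each under the floor on some arrays, so the median rested on few genes. The brightest was CYCD5-1 (LOC4333455), of a subfamily of G1 cyclins, with signals of 360 and 472 in lc1 and 503 and 636 in the wild type. Both lc1 arrays lay below both wild-type arrays, by a log2 difference of -0.46 ± 0.25 (95% interval -1.03 to 0.12) and a limma adjusted p of 0.683. CYCD3-2 (LOC4346394), of the subfamily that in Arabidopsis keeps cells dividing, had 15.5 and 12.5 in lc1, with the second under the floor, against 19.5 and 33.4 in the wild type. Its difference of -0.88 ± 0.47 (limma adjusted p = 0.680) lay between -1.27 and -0.49 with one array left out. The genotypes overlapped in the other 7. CYCD3-1, at 50.2 and 92.6 in lc1 and 105 and 79.7 in the wild type, and CYCD4-1, at 36.7 and 41.7 against 68.5 and 39.6 in the wild type, gave -0.42 ± 0.37 and -0.41 ± 0.38. CYCD4-2, CYCD5-2, CYCD5-3 and CYCD6-1 lay between -0.05 and 0.19. CYCD2-2 was under the floor on 3 of 4 arrays.

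None of the KRP inhibitors passed the test. KRP1 (LOC4330816) had signals of 659 and 560 in lc1 and 475 and 657 in the wild type, a difference of 0.12 ± 0.25. KRP4 (LOC4348872) had 380 and 424 in lc1 and 390 and 517 in the wild type, a difference of -0.16 ± 0.25. KRP5 (LOC4331554) had 57.7 and 71.5 in lc1 and 81.5 and 65.7 in the wild type, a difference of -0.19 ± 0.31. The genotypes overlapped in all of these. In KRP6 (LOC4347280) they did not, with 59.7 and 68.5 in lc1, against 47.3 and 49.1 in the wild type. Its difference of 0.41 ± 0.31 (95% interval -0.30 to 1.11) did not pass limma (adjusted p = 0.755). For KRP1, KRP4 and KRP5 the interval lay within a 2-fold change either way. The median of the 4 was -0.02, with 0 called.

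**Figure D2:**
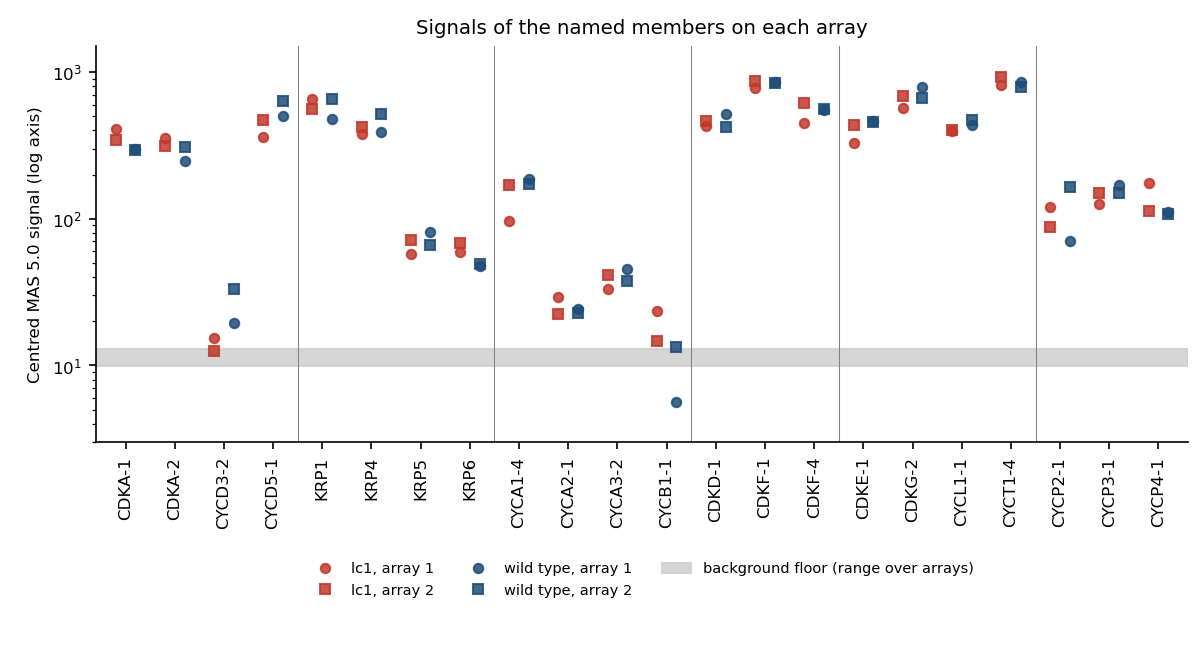
Centred MAS 5.0 signals (log axis) of the 22 named members on each array, lc1 in red left of the wild type in blue, with the range of the background floors in grey. CYCB1-1 and CYCD3-2 reach into the floor, whereas the brightest probe sets of the CDK-activating and transcription-linked members lie far above it. Heights of different probe sets are not comparable as transcript levels.

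Many of the cyclins of S phase to mitosis lay near background. The class, with its kinase, held 8 genes, and 4 of them were above the floor on all 4 arrays: CYCA1-4, CYCA2-1, CYCA3-2 and CDKB2-1. As 6 of the 8 were tested, the share among tested genes of the class was 4 of 6. Over the tested members of all classes it was 32 of 36, against 91.2% of all tested genes. None of the 4 B-type cyclins, which with their kinase partners trigger mitosis, was above the floor on every array. CYCB1-3 and CYCB2-2 fell below the filter and were not tested. CYCB1-3 (LOC4326914) had 0.4999 and 10.3 in lc1 and 11.9 and 1.04 in the wild type. Levels this low give no order between the genotypes.

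CYCB1-1 (LOC4327547), an indicator of cells in G2 and mitosis, had signals of 23.4 and 14.6 in lc1, against 5.60 and 13.4 in the wild type, with the first wild-type value under the floor. Both lc1 arrays were above both wild-type arrays, but lc1 array 2 and wild-type array 2 were close. The difference of 1.09 ± 0.62 had a 95% interval of -0.33 to 2.52 and a limma adjusted p of 0.693, and it lay between 0.46 and 1.72 with one array left out. CYCB2-1 stayed around the floor on all arrays, at 14.2 and 12.2 in lc1 and 10.4 and 12.05 in the wild type.

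The A-type cyclins and CDKB2-1 were more clearly detected. CYCA1-4 (LOC4338177) had 96.1 and 171 in lc1, against 188 and 173 in the wild type, a difference of -0.49 ± 0.33 (limma adjusted p = 0.724). Only lc1 array 1 stood apart from the rest, and without it the difference was -0.08. CYCA2-1 had 29.2 and 22.6 in lc1 and 24.2 and 22.6 in the wild type. CYCA3-2 had 33.2 and 41.3 in lc1 and 45.6 and 37.6 in the wild type. CDKB2-1 (LOC4346016), a kinase made from G2 to mitosis, had 24.8 and 21.9 in lc1 and 23.1 and 27.9 in the wild type. These last 3 overlapped between genotypes, with differences of 0.14 ± 0.39, -0.16 ± 0.35 and -0.12 ± 0.39. Over the 6 tested genes of the class the median was 0.01, with 3 higher and 3 lower in lc1. When dimmer probe sets were dropped at the 60th percentile, 2 genes of the class were left, CYCA1-4 and CYCA3-2, with a median of -0.33.

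The CDK-activating kinases had a median size of difference of 0.07 between genotypes, against 0.19 over all 36 tested genes. Their median SE was 0.24, against 0.31 over all 36. Single arrays of the same genotype differed by a median of 0.32 in lc1 and 0.28 in the wild type. The contrast with the other genes was not tested. CDKD-1 (LOC4338689), the rice kinase known as R2 that phosphorylates other CDKs, had signals of 431 and 462 in lc1 and 521 and 421 in the wild type, a difference of -0.07 ± 0.23. CDKF-1 (LOC4340934), of the plant family that in Arabidopsis activates CDKD, had 781 and 863 in lc1 and 849 and 839 in the wild type, a difference of -0.04 ± 0.20. CYCH1-1, the cyclin partner of CDKD, had 231 and 295 in lc1 and 286 and 213 in the wild type, a difference of 0.08 ± 0.28. The brightest probe sets of all 5 genes overlapped between genotypes, and all 5 intervals lay within a 2-fold change either way. CDKF-3 gave 0.00 ± 0.26. CDKF-4 gave -0.10 ± 0.24 on its bright probe set, while its dim one, at 21.0 and 24.6 in lc1 and 38.0 and 36.6 in the wild type, gave -0.71 ± 0.37 (limma adjusted p = 0.667).

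Members linked to transcription and splicing were all above the floor on every array on their brightest probe sets, and 5 of 7 were lower in lc1, with a median of -0.18 and 0 called. CYCT1-4 (LOC4352229), of the cyclins that pair with CDKC to phosphorylate RNA polymerase II, had 813 and 920 in lc1 and 854 and 796 in the wild type, a difference of 0.07 ± 0.20. CYCL1-1 (LOC4325450), of a cyclin type linked to splicing, had 394 and 404 in lc1 and 433 and 470 in the wild type, a difference of -0.18 ± 0.23. CDKG-2 (LOC4336224), of the kinases that pair with L-type cyclins in Arabidopsis, had 572 and 689 in lc1 and 785 and 661 in the wild type, a difference of -0.20 ± 0.22. Only in CYCL1-1 among these were the genotypes separate, by less than the error of the difference. CDKG-1 gave 0.31 ± 0.23 and CDKC-1 gave -0.38 ± 0.32, with separate genotypes in both, and CYCT1-2 gave -0.01 ± 0.31. In the class as a whole, 4 of 7 genes were separate, 1 higher and 3 lower in lc1. Over all tested genes the shares were 21.9% and 18.1%. None of the 7 passed limma, with adjusted p of 0.752 or more.

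CDKE-1 (LOC4349519), the kinase of the Mediator complex that links transcription factors to RNA polymerase II, gave opposite directions on its probe sets. The bright one had 330 and 434 in lc1, against 466 and 454 in the wild type, a difference of -0.28 ± 0.24 (limma adjusted p = 0.786). The other had 164 and 32.9 in lc1, against 21.6 and 14.6 in the wild type, a difference of 2.04 ± 0.67 (adjusted p = 0.492), which was the largest of any member probe set. Its size rested on lc1 array 1: without that array it was 0.89, and without lc1 array 2 it was 3.20. With the replicate number as a block the limma adjusted p was 0.00130, in a run that called 644 of all 34355 tested probe sets. The probe set also passed without lc1 array 2, a run with a single lc1 array. No other member probe set passed in any alternative run. The same gene therefore read lower on one probe set and higher on the other.

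Several members had more than 1 probe set. Of the 8 genes with more than 1 tested probe set, 7 had differences of both signs, though in several of these one of the values was smaller than its own standard error. The dimmest probe set of CDKG-2, at 42.9 and 44.0 in lc1 and 34.5 and 26.6 in the wild type, gave 0.52 ± 0.35, whereas the other probe sets of the gene gave -0.20 ± 0.22 and -0.30 ± 0.34. CYCD5-2, CDKG-1 and KRP4 had second probe sets near the floor, with differences of -0.13 ± 0.48, -0.14 ± 0.71 and 0.0028 ± 0.62. CDKF-4 alone was lower on both. No test of the difference between probe sets of a gene was run.

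**Figure D3:**
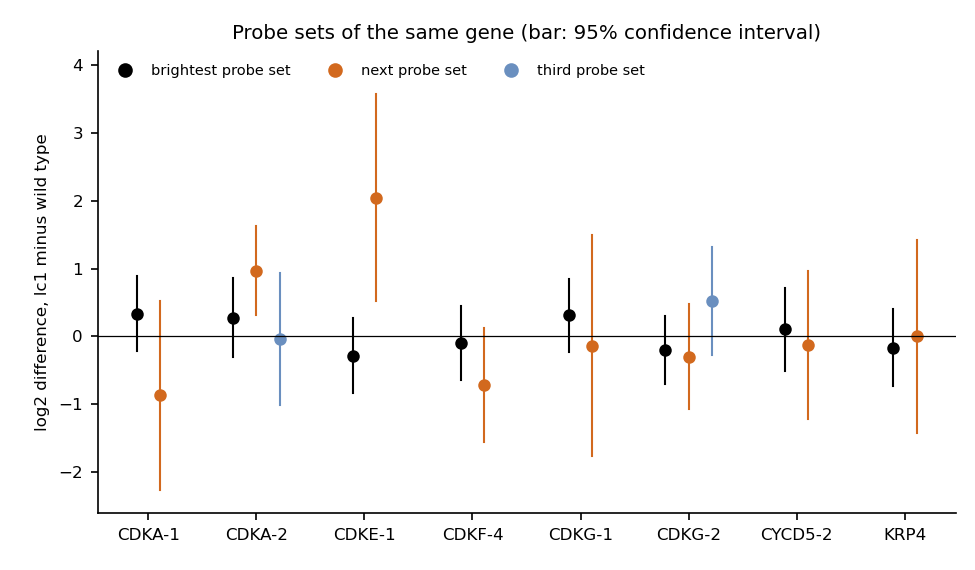
Log2 difference, lc1 minus wild type, with its 95% confidence interval for every tested probe set of the 8 member genes that have more than 1, ordered from the brightest (black) to the dimmest. The second probe sets of CDKA-2 and CDKE-1 are the only ones whose interval leaves out 0, and for CDKE-1 the bright probe set lies on the other side of 0.

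The P-type cyclins, a class also called U-type and related to the yeast phosphate-signalling cyclin PHO80, were detected on every array. CYCP4-1 (LOC4349405) had signals of 175 and 113 in lc1, against 112 and 108 in the wild type. Its lc1 array 1 stood apart, and the difference of 0.36 ± 0.31 (limma adjusted p = 0.785) was 0.05 without that array. CYCP3-1 (LOC4338711) had 126 and 150 in lc1 and 169 and 149 in the wild type, a difference of -0.21 ± 0.28. CYCP2-1 (LOC4336603) had 120 and 87.2 in lc1 and 70.2 and 164 in the wild type, a difference of -0.07 ± 0.42. The wild-type arrays of CYCP2-1 enclosed both lc1 values, and its difference took either sign, from -0.68 to 0.55, with one array left out. The single F-type cyclin with a probe set, CYCF2-2, was under the floor on all 4 arrays and was not tested.

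Set side by side by phase, the class medians lay between -0.18 and 0.01. They were -0.05 for S phase entry (11 genes), -0.02 for the KRP inhibitors (4), 0.01 for S phase to mitosis (6), -0.04 for the CDK-activating kinases (5), -0.18 for transcription and splicing (7) and -0.07 for the P type (3). On single arrays, the median over the S phase entry genes of the log2 signal minus its mean over 4 arrays was -0.12 and -0.03 in lc1 and 0.05 and -0.07 in the wild type. For S phase to mitosis the same value was 0.13 and 0.04 in lc1 and -0.05 and 0.04 in the wild type. In the first of these classes one lc1 array lay between the wild-type arrays, and in the second the lower lc1 array lay level with the upper wild-type one. For transcription and splicing it was -0.05 and 0.03 in lc1 and 0.03 and -0.02 in the wild type, with the genotypes intermingled. Differences between classes were not tested.

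**Figure D4:**
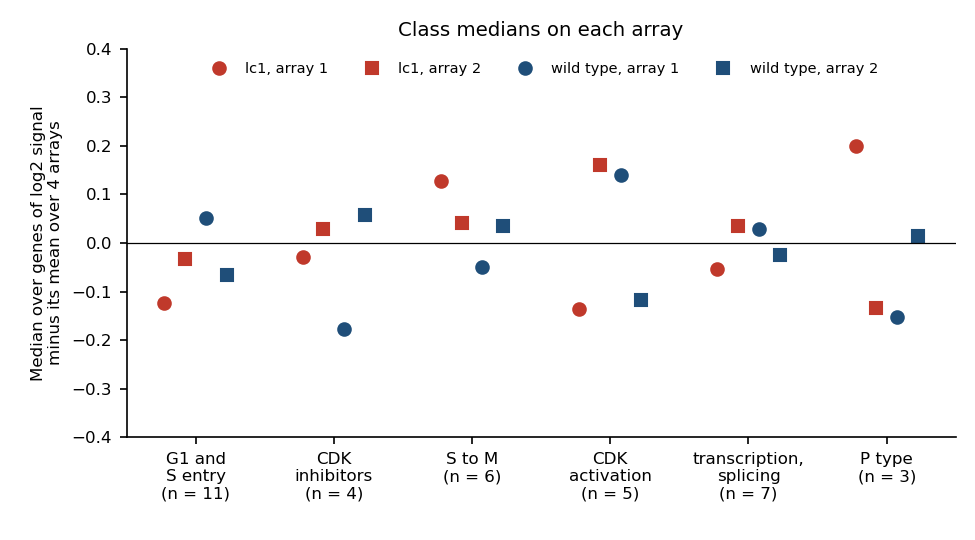
Median over the tested genes of each class of the log2 signal minus its mean over the 4 arrays, for each lc1 array (red) and each wild-type array (blue). The lc1 and wild-type arrays are intermingled in most classes, and the deviations stay between -0.18 and 0.20.

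Other genes of cell division, chosen by name, gave 0 called of 32 tested genes, with 20 higher and 12 lower in lc1 and a median of 0.13. E2F genes and genes of the anaphase-promoting complex and mitotic checkpoint were also sought by name, but none were matched, so they were not examined. Of all tested genes 53.0% were higher. An unadjusted limma p under 0.05 was met by 1 of the 32, RBR1, against 8.08% of all tested genes. RBR1 (LOC4346176), the retinoblastoma-related protein on which D-type cyclins with CDKA act, had signals of 28.3 and 28.6 in lc1, against 11.5 and 13.8 in the wild type, which were just above the floors of 9.88 and 12.3. No lc1 signal overlapped those of the wild type. The difference of 1.17 ± 0.43 (95% interval 0.19 to 2.16) stayed between 1.04 and 1.30 with any one array left out, but limma gave an adjusted p of 0.560 and an unadjusted p of 0.0246. A second probe set of RBR1 was under the floor on all 4 arrays. RBR2 (LOC4350648) lay the other way, at 237 and 299 in lc1 and 340 and 325 in the wild type, a difference of -0.32 ± 0.25.

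Of the 23 tested genes of replication licensing and DNA synthesis, 14 were higher and 9 lower in lc1, with a median of 0.20 and 0 called, although 9 of the 25 genes in the list lay at or under the floor on some arrays and 2 on all. The genotypes did not overlap in 9 that were higher and 2 that were lower in lc1, against 21.9% and 18.1% of all tested genes. The differences above 1 were those of ORC5, ORC1 and MCM3, of the complexes that mark and load replication origins, and each of these had a wild-type array under the floor. ORC5 (LOC4334180) had 27.1 and 20.0 in lc1, against 8.12 and 14.4 in the wild type, a difference of 1.10 ± 0.52 (limma adjusted p = 0.638). MCM5 was under the floor on both wild-type arrays and at 16.7 and 15.1 in lc1. With the wild type set to its floors that is 1.44-fold higher, a figure that carries no sampling error. The 95% interval of its fold change, lc1 over wild type, was 0.79 to 4.49 (limma adjusted p = 0.706). ORC2, of the same origin complex, lay the other way and well above the floor, at 101 and 64.4 in lc1, against 126 and 133 in the wild type. Both lc1 arrays were below both wild-type arrays, by -0.69 ± 0.32 (limma adjusted p = 0.638). PCNA, the sliding clamp of DNA polymerase, had 284 and 298 in lc1, against 252 and 257 in the wild type, a difference of 0.20 ± 0.24, and RPA14, of the complex that binds single-stranded DNA, gave 0.27 ± 0.20. MCM9 (LOC4340503) gave -0.13 ± 0.35 on its bright probe set. Its dimmest one was under the floor on both lc1 arrays, though lc1 array 2, at 12.89, was close to its floor of 12.94. With lc1 set to its floors this probe set was 1.97-fold lower in lc1. The 95% interval of its fold change, lc1 over wild type, was 0.083 to 0.83 (limma adjusted p = 0.574).

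The list of CDK regulators, chosen by name, gave 4 genes higher and 2 lower in lc1, with a median of 0.10 and 0 called. Among the higher ones were CDC25.1 and CDC25.2, the only genes of the list with separate genotypes, so the median rested in part on them. MYB3R-2 (0.02) and SMR1 (-0.12) overlapped between genotypes. CKS1, a docking subunit of CDKs, had 1127 and 777 in lc1 and 696 and 987 in the wild type, a difference of 0.18 ± 0.26. EL2 (LOC4331332), a CDK inhibitor of rice, had 556 and 349 in lc1 and 533 and 418 in the wild type, a difference of -0.10 ± 0.29. In both of these probe sets the genotypes overlapped. A dimmer EL2 probe set had 73.7 and 46.5 in lc1, against 80.9 and 84.5 in the wild type. There the genotypes were separate, with a difference of -0.50 ± 0.34 (limma adjusted p = 0.724). CDC25.1, named for the CDK phosphatase but known in rice as an arsenate reductase, had 2178 and 2058 in lc1 and 1644 and 1959 in the wild type, a difference of 0.24 ± 0.17. CDC25.2, which shares the name, gave 0.33 ± 0.24 (limma adjusted p = 0.740). CENH3, the histone of the centromere, had 70.2 and 79.4 in lc1 and 78.2 and 68.3 in the wild type, a difference of 0.03 ± 0.30.

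**Figure D5:**
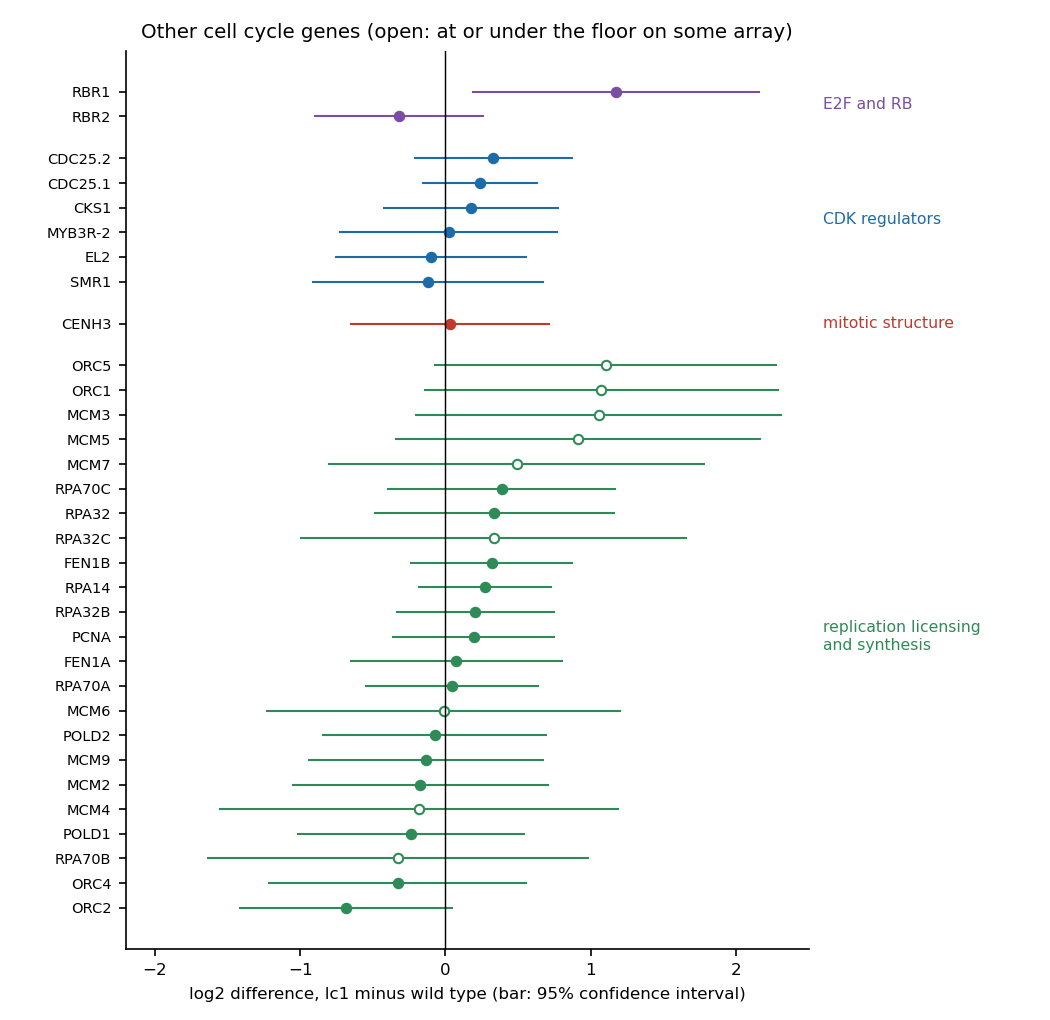
Log2 difference, lc1 minus wild type, with its 95% confidence interval for the 32 tested genes of the other cell division lists, with open circles for genes at or under the floor on at least one array. ORC5, ORC1 and MCM3, to the right of 1, are open, and the interval of RBR1 is the only one that leaves out 0.

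Markers of other tissues that divide or could be carried along were also read. Of the 5 shoot meristem genes of the KNOX type, OSH1 and OSH3 were under the floor on all 4 arrays, OSH6 was above it on 1, and OSH43 and OSH71 were above it on all. OSH71 had 69.1 and 45.7 in lc1 and 64.0 and 85.8 in the wild type, a difference of -0.40 ± 0.35. Of the 3 panicle markers FZP was under the floor on all arrays and LAX1 and RCN1 on some, with RCN1 at 77.3 and 20.0 in lc1 and 8.89 and 51.4 in the wild type. The anther genes TDR and CYP703A3 were each above the floor on 1 array, and GAMYB and MSP1 overlapped between genotypes. The green blade genes CAB2R and RBCS overlapped between genotypes, while RCAA1, the Rubisco activase, had 3299 and 3642 in lc1 and 2027 and 3217 in the wild type. None of the tested markers passed limma.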

How the data were processed

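The deposited values are linear intensities, 1 for each probe set on each array. The design text names Affymetrix Microarray Suite, version 5.0 (MAS 5.0), as their source. R 1.8.0 is named in the submitters' processing notes. Detection calls and the authors' change call were not used here. Of 57381 probe sets, 123 controls were left out, and 18 values of 0 were set to 0.05 before log2. The dimmest 40% by mean log2 signal (below a signal of 5.96) were dropped, which left 34355 to test. Each array was centred on its median log2 difference from the probe set means over these, because the deposited medians ran from 11.8 to 16.1. The test was limma 3.58.1 in R 4.3.3 (lmFit and trended eBayes on genotype alone, 2-sided, Benjamini-Hochberg, threshold 0.05). It was also run on simulated signals with independent normal errors drawn from limma's own fitted prior. That run checks the code, not how well the test suits these arrays.

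Gene names came from the array's platform annotation together with the gene table of assembly ASM3414082v1, from which no coordinates were taken. A single gene was given for 22436 probe sets, all found in the table, while 95 had more than 1 and 34727 had none. A gene stands for its brightest probe set, except where said. Identical signals between any pair of arrays made up 1.64% or less. The members, lists and rules were chosen with earlier results of these data known. Named members were those with an unadjusted p under 0.05, those with separate genotypes and a log2 difference of at least 0.5, the 3 brightest of each class, and all KRP and P-type genes, 22 in all. In each other list they were those with the 2 smallest p and the brightest, 8 genes in all. Other genes named in the text were chosen after their values were seen.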

Additional observations from a re-analysis of the deposited data

How the results depend on the processing

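Of 355 single-gene values under the alternatives, 20 changed sign. Many of the others could not have done so. The filters, the variance prior and the replicate block leave the estimate of a probe set as it was. Differences on signals as deposited were shifted by their median before the comparison. Of 128 values with an array left out, 14 changed sign. Members called numbered 0 in the fit described, and 1 with the replicate number as a block; leaving out one array gave from 0 to 1. Over the whole array 9 probe sets were called, against 1 on signals as deposited, 4 after quantile normalization, 1 without a filter, 29 with the filter at the 60th percentile, 29 on log2(signal + 16), 0 with a common variance prior (2421 at an unadjusted p under 0.05), 644 with the replicate block and from 4 to 1268 leaving out one array, with 1268 without lc1 array 2 (276 without lc1 array 1). The numbers of the arrays were not shown to pair them, since same-numbered deviations had a correlation of -0.036. Filtering at the 60th percentile left 9 genes of S phase entry with a median of 0.10 and 2 of S phase to mitosis with -0.33. It left RBR2 alone of the 2 RBR genes, at -0.32, and 14 of replication with 0.060. Without a filter the replication median was 0.080, and on log2(signal + 16) the median of RBR1 and RBR2 was 0.17. Leaving out one array, medians ran from -0.24 to 0.060 for S phase entry, -0.074 to 0.20 for the KRP genes, -0.028 to 0.15 for S phase to mitosis, -0.13 to 0.13 for the CDK-activating kinases, -0.21 to -0.065 for transcription and splicing, -0.12 to 0.33 for the P type, 0.053 to 0.30 for the CDK regulators and 0.12 to 0.23 for replication. Replication genes called ran from 0 to 1, the 1 being the dim MCM9 probe set without lc1 array 2. Single genes that changed sign when one array was left out were CDKD-1 (-0.22 to 0.083), CDKF-1 (-0.11 to 0.033), CDKF-4 (-0.32 to 0.13), CYCA2-1 (-0.052 to 0.32), CYCP2-1 (-0.68 to 0.55), CYCT1-4 (-0.020 to 0.16), KRP1 (-0.11 to 0.35), KRP4 (-0.37 to 0.041), CENH3 (-0.066 to 0.13), EL2 (-0.44 to 0.24) and MCM9 (-0.60 to 0.34). After quantile normalization CYCT1-4 was -0.024. Other probe sets gave -0.87 for CDKA-1, -0.037 for CDKA-2, 2.04 for CDKE-1, 0.52 for CDKG-2 and 0.0028 for KRP4, each opposite in sign to the brightest one. The cause of these changes was not tested. Precision is limited by the number of arrays and, for the B-type cyclins and some ORC and MCM genes, by signals near background.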
